A study of Mus musculus with 2 samples.

Results

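The proneural basic helix-loop-helix (bHLH) genes and the Id genes that oppose them were followed here by name, 10 of the 43346 Ensembl genes in the tables. The bHLH genes are Neurog1, Neurog2, Neurod2, Neurod4, Neurod6 and Bhlhe22, and the Id genes are Id1, Id2, Id3 and Id4. They were chosen by name and not by a rule on measured values, though with earlier results of these data known. All 10 had counts in both libraries. The tissue was hindbrain (cerebellum, pons and medulla) of newborn mice, postnatal day 0, with no mutation or treatment in the labels. The animals were of strain B6NTac;B6NCrl/Lap, males and females together. Total RNA depleted of ribosomal RNA was sequenced in 2 libraries of this single group. Replicate 1 pooled 15 mice, the pool size of replicate 2 is not given, and both carry the same donor identifier. Nothing beyond the labels shows separate litters, so the spread between the libraries may be technical in part.

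Proneural bHLH factors switch progenitors towards the neuronal fate. They bind the E-box sequence CANNTG as dimers with the widely expressed E proteins. Neurog factors act in progenitors, Neurod4 acts in newborn neurons, and Neurod2, Neurod6 and Bhlhe22 act mainly in postmitotic neurons. Id proteins keep the helix-loop-helix but lack the basic region that contacts DNA, so they hold E proteins in dimers that do not bind it. BMP signals are well-known inducers of Id genes, which are active in progenitors, glia and endothelium.

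The sequences below show where the transcripts of Id1 and Id3 differ, since the share of their intron-keeping forms differed between the libraries. In the first windows the capitals mark the first bases of the intron, GT, after the last 15 exon bases, and the letters come from the GENCODE M21 transcripts (mm10, plus strand). The Id1 window lies at chr2:152736731-152736760 and the Id3 window at chr4:136144362-136144391.
Id1 intron 1 donor: gccttggcggccgagGTgaggtccgaggca
Id3 intron 2 donor: tcctggcacctcccgGTaagctttctcctg
The transcript Id1-202 keeps all 226 bases of the only Id1 intron. Its reading frame runs through 99 intron bases and ends at a stop codon inside the intron (chr2:152736746-152736847), with GT and the stop codon in capitals.
Id1-202 intron start to stop: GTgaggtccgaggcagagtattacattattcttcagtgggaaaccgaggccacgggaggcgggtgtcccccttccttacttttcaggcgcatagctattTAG
The transcript Id3-203 splices the first intron and keeps the first 340 of the 503 bases of the second, which lies after the stop codon of Id3-201.

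All 4 Id genes were expressed well above the proneural genes of progenitors. Levels are in TPM, the authors' transcript abundance in which counts are divided by transcript length and scaled to a fixed sum, and are given as mean ± SD over the 2 libraries. Counting a gene as detected at 1 TPM or more in both libraries, 4 of 4 Id genes and 3 of 6 bHLH genes were detected. Among 21474 protein-coding genes, 54.7% met the same limit. In bulk tissue, fewer cells that express a gene and less RNA per cell cannot be told apart.

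Id3 had the highest mean level (chromosome 4, 136143497 to 136145755, mm10), with 57.0 TPM in replicate 1 and 66.0 TPM in replicate 2, or 61.5 ± 6.41 TPM (SD, n = 2). Id2, which in brain is also present in differentiated neurons (chromosome 12, 25093799 to 25097140), had 55.0 and 45.6 TPM, or 50.3 ± 6.68. Id1 (chromosome 2, 152736251 to 152737410) had 39.6 and 37.9 TPM, or 38.7 ± 1.22. The 3 genes lay above the 95th percentile of protein-coding genes by mean TPM, at 97.3, 96.5 and 95.2. Id4, which marks neural progenitors and astrocytes (chromosome 13, 48261228 to 48266026), was the lowest of the family with 29.4 and 20.4 TPM, or 24.9 ± 6.36. Its range did not overlap those of the other 3. Only Id4 has an annotated overlapping gene, the antisense A330033J07Rik, which had 22 and 70 counts against 3242 and 4605 for Id4.

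The bHLH genes fell into a detected and a scarce set. Neurod2 (chromosome 11, 98325415 to 98329648), a factor of neuronal differentiation used in cerebellar granule cells as well as in forebrain, had 26.0 TPM in replicate 1 and 16.7 TPM in replicate 2, or 21.3 ± 6.61 (SD, n = 2). Bhlhe22, a repressor of postmitotic neurons related to the Olig factors (chromosome 3, 18054174 to 18057517), had 21.9 and 12.4 TPM, or 17.1 ± 6.69. Neurod6, best known from cortical pyramidal neurons (chromosome 6, 55677822 to 55681263), had 6.77 and 4.0 TPM, or 5.39 ± 1.96. Neurod2 and Bhlhe22 together held 86.1% of the summed bHLH level in replicate 1 and 84.8% in replicate 2.

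The remaining bHLH members were below 1 TPM in each library. Neurog2 (chromosome 3, 127633135 to 127635631), a determination factor, had 0.72 and 0.64 TPM, or 0.680 ± 0.057 (SD, n = 2), from 113 and 204 counts. Neurod4 (chromosome 10, 130268152 to 130280240) had 0.19 and 0.49 TPM, or 0.340 ± 0.212, from 46 and 247 counts. Neurog1 (chromosome 13, 56250478 to 56252163), the other Neurog determination factor, had 0.04 and 0.08 TPM, or 0.060 ± 0.028, from 4 and 19 counts. These genes were above the level that 3 counts would give, which for Neurog1 is 0.030 TPM in replicate 1 and 0.013 TPM in replicate 2, a limit for counting error only. Neurog1 in replicate 1 was 1 count above that limit.

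**Figure D1:**
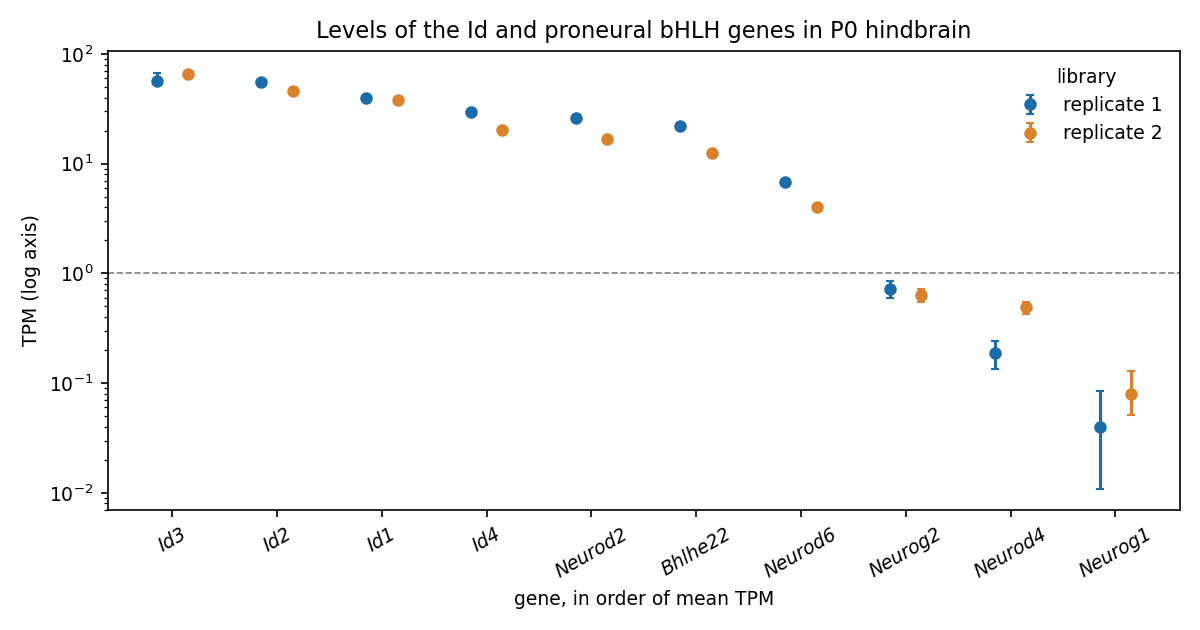
TPM on a log axis for each Id and bHLH gene in replicate 1 and replicate 2, in order of mean TPM, with the deposited interval of each value as bars and a dashed line at 1 TPM. The Id genes lie between 20.4 and 66.0 TPM, while Neurog2, Neurod4 and Neurog1 lie under the line in both libraries.

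Ratios between genes were taken within each library, which removes any factor that all TPM values of a library share. For each neighbour in the order of mean levels the mean log2 ratio (TPM + 0.1) was set against its SD over the libraries. By this description 8 of 9 neighbouring pairs differed by more than the spread. The exception was Id3 over Id2, where the ratio of TPM was 1.04 in replicate 1 and 1.45 in replicate 2 and the mean log2 ratio was 0.29 ± 0.34 (SD, n = 2). Their deposited intervals overlapped in replicate 1, 55.0 to 66.6 TPM for Id3 and 52.8 to 56.0 TPM for Id2. The Id and bHLH genes met in the narrow step of Id4 over Neurod2, with ratios of 1.13 and 1.23 and a mean log2 ratio of 0.23 ± 0.08. With an SD 3 times as large required, 2 pairs differed, Bhlhe22 over Neurod6 and Neurod6 over Neurog2. The order was taken from the same 2 libraries, so these counts of pairs describe it and do not test it. A sign-flip test is not given, as its smallest exact p with 2 libraries is 0.5.

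Within the Neurod genes the order was the same in both libraries, with Neurod2 over Neurod6 at 3.84 in replicate 1 and 4.17 in replicate 2. Neurod2 over Neurod4 was 137 and 34.0, with 46 and 247 counts of Neurod4. Bhlhe22 over Neurod6 was the steadiest pair, with 3.23 and 3.10. Neurog2 over Neurog1 was 18.0 and 8.0, resting on 4 and 19 counts of Neurog1. The summed level of the Id genes was 181 TPM in replicate 1 and 170 TPM in replicate 2, against 55.6 and 34.3 TPM for the bHLH genes. The ratio of these sums was 3.26 in replicate 1 and 4.96 in replicate 2, a mean log2 ratio of 2.01 ± 0.43 (SD, n = 2). The Id excess over these 6 bHLH genes was thus larger than the spread. It does not extend to neural bHLH genes as a whole. The 16 other neural bHLH genes described below, which are not in the sum, held 131 and 93.4 TPM. A difference of medians gave 4.44 ± 0.20 on the log2(TPM + 0.1) scale, since the scarce bHLH genes weigh more in a median.

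The E proteins, the shared partners of both families, were measured at levels between those of Neurod2 and Id1. Their summed level was 98.4 TPM in replicate 1 and 81.6 TPM in replicate 2. Tcf3 had 31.1 ± 8.22 TPM, Tcf4 30.6 ± 5.54 and Tcf12 28.3 ± 1.85 (SD, n = 2). All 3 were detected. These messenger RNA levels do not give protein amounts.

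Of the other neural bHLH genes, 10 of 16 were at 1 TPM or more in both libraries. The oligodendrocyte lineage factors Olig1 and Olig2 had 57.4 ± 13.7 and 15.5 ± 5.38 TPM, and Neurod1, a factor of granule cell differentiation, had 11.3 ± 0.785 (SD, n = 2). Neurod2 over Neurod1 was 2.20 in replicate 1 and 1.55 in replicate 2. Atoh1, which specifies granule cell progenitors, had 3.20 TPM in replicate 1 and 4.57 TPM in replicate 2. Neurog3, best known from the endocrine pancreas, had 0 counts in both libraries, which allows up to 0.030 TPM in replicate 1 and 0.015 TPM in replicate 2 (3 counts each).

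Of the Hes and Hey genes, Notch-responsive repressors of proneural genes, 5 of 7 were detected. Hes5, Hes6 and Hey1 led with 37.7 ± 5.33, 36.8 ± 8.80 and 10.1 ± 1.43 TPM, and Hes3 was lowest with 0.080 ± 0.042 (SD, n = 2). Hes6 differs from the others in that it promotes neuronal differentiation. Of 6 genes known as targets of Neurog factors all 6 were detected, led by Cbfa2t2 (11.8 ± 2.47 TPM), Insm1 (10.2 ± 2.49) and the Notch ligand gene Dll1 (9.45 ± 4.08), with Cbfa2t3 lowest (2.21 ± 0.445). Of 19 BMP signalling genes, 16 were detected, led by the signal transducers Smad4 (33.3 ± 5.42) and Smad1 (16.3 ± 3.82) and the receptor gene Bmpr2 (13.6 ± 3.01). The ligand gene Bmp5 was lowest with 0.430 ± 0.099 TPM.

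Between the libraries, scaled counts of Id1, Id2 and Id3 were higher in replicate 2 and those of Neurod2, Neurod6 and Bhlhe22 were higher in replicate 1, although in TPM Id1 and Id2 were also higher in replicate 1. The ratio was taken from counts scaled by TMM, a library scaling that assumes most genes do not differ, with replicate 1 on top, so a negative log2 value is higher in replicate 2. The deposited tables held 54313140 and 77142270 expected counts. The median over 17632 genes averaging at least 10 counts was -0.01 on this scale, but 0.48 with TPM, whose fixed sum makes a typical gene 1.40-fold higher in replicate 1. Members past 1.5-fold numbered 3 of 10, against 24.6% of those 17632 genes. All 3 were higher in replicate 2, past which fold 14.7% of the genes lay in that direction and 9.88% in the other. With 1 library on each side there is no test, and intervals are exact (Clopper-Pearson, 95%) for counting error only.

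Id3 had 4408 counts in replicate 1 and 9496 in replicate 2, which after scaling is a log2 ratio of -0.60 (-0.65 to -0.55), 1.51-fold higher in replicate 2. Of 12811 genes averaging at least 200 counts, 5.08% were past 1.5-fold in that direction. Id1 had 2042 and 4166 counts and a log2 ratio of -0.52 (-0.60 to -0.44). Id2 had 4308 and 7339 counts and -0.26 (-0.31 to -0.20). Id4 did not share this direction, with a log2 ratio of 0.003 (-0.06 to 0.07), or -0.10 with spike-in scaling. In TPM Id3 was still higher in replicate 2, but Id1 and Id2 were higher in replicate 1, by 1.05-fold and 1.21-fold. The spliced transcript Id3-201 alone was within 1.5-fold. It was 1.38-fold higher in replicate 2 in scaled counts and lower there in TPM (54.9 and 52.3).

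Neurod2, Bhlhe22 and Neurod6 were higher in replicate 1, within 1.5-fold. Neurod2 had 6025 counts in replicate 1 and 7837 in replicate 2, a log2 ratio of 0.13 (0.08 to 0.18). This lay inside the middle 50% of genes averaging at least 200 counts (-0.17 to 0.16). Bhlhe22 had 5424 and 6246 counts and 0.31 (0.25 to 0.36), and Neurod6 had 1020 and 1227 counts and 0.24 (0.12 to 0.36). With spike-in scaling the log2 ratios were smaller, 0.03 for Neurod2, 0.20 for Bhlhe22 and 0.14 for Neurod6. In TPM these 3 genes were past 1.5-fold, at 1.56, 1.76 and 1.69, with the shared factor of TPM in the ratio. Of 5 cortex markers, a list that includes Neurod6, 2 (Fezf2 and Tbr1) were past 1.5-fold in replicate 1 and 1 (Emx2) in replicate 2. These 3 had few counts, 78 and 30 for Fezf2, 93 and 55 for Tbr1 and 11 and 38 for Emx2. Of 17632 genes averaging at least 10 counts, 9.88% were past 1.5-fold in replicate 1 and 14.7% in replicate 2. Towards replicate 2 the share was 28.5% at mean counts from 100 to under 200 and 51.2% from 10 to under 20. The summed level of the 5 cortex markers was 7.78 TPM in replicate 1 and 4.39 TPM in replicate 2. Most of this sum was the member Neurod6 itself, with 6.77 and 4.0 TPM. Fezf2 had 0.48 and 0.09 TPM, Tbr1 had 0.31 and 0.11 TPM, and none of the 5 cortex markers was at 0. Of 4 neuron markers none was past 1.5-fold, with a median log2 ratio of 0.12, 3 above 0 and 1 below. Of 4 granule cell lineage markers with enough counts, 1 (Atoh1) was past it, higher in replicate 2. Their median log2 ratio was -0.09. The part of the cortex, neuron or granule cell markers in the Neurod and Bhlhe22 values was not tested.

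Scaled counts of the scarce bHLH genes were higher in replicate 2, although Neurog2 was higher in replicate 1 in TPM. Neurod4, with 46 counts in replicate 1 and 247 in replicate 2, had the largest ratio of the members, log2 -1.88 (-2.40 to -1.46), or 3.68-fold higher in replicate 2. Neurog1 had -1.41 (-3.75 to -0.15) and Neurog2 -0.34 (-0.69 to -0.004). Genes with few counts often lay past 1.5-fold and higher in replicate 2. They made up 28.5% of 1226 genes with a mean count from 100 to under 200, the range of Neurod4, and 51.2% of 983 genes from 10 to under 20, the range of Neurog1. Within the first range 41 genes (3.34%) were at least as far towards replicate 2 as Neurod4.

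**Figure D2:**
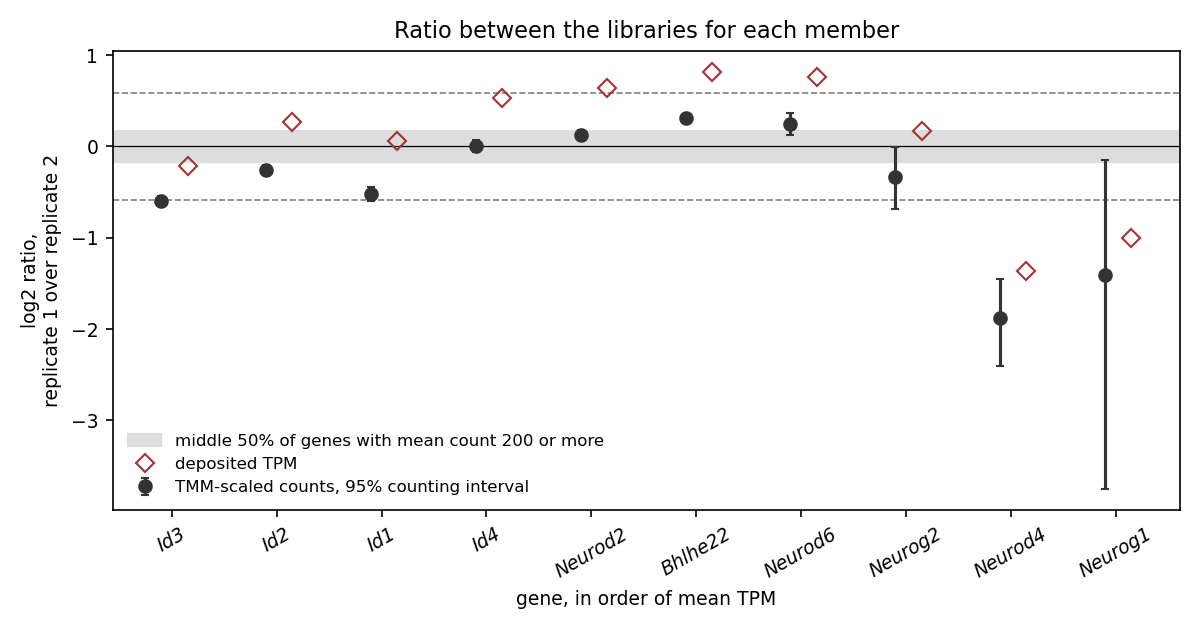
Log2 ratio of replicate 1 over replicate 2 for each member, in order of mean TPM, from TMM-scaled counts with the 95% counting interval (dots) and from deposited TPM (diamonds), with dashed lines at 1.5-fold and a grey band for the middle 50% of genes averaging at least 200 counts. Scaled counts of Id3, Neurod4 and Neurog1 lie beyond the lower line, and TPM places every member higher on the axis than the counts do, with Id1, Id2 and Neurog2 on the other side of 0.

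Of the pathway lists, only BMP signalling and the other neural bHLH genes held genes past 1.5-fold between the libraries. For comparison, 24.6% of 17632 genes averaging at least 10 counts were past it in either direction. Of 12811 genes averaging at least 200 counts, 5.08% were past it towards replicate 2. This share was 28.5% at mean counts from 100 to under 200 and 51.2% from 10 to under 20. None of 3 E proteins, 7 Hes and Hey genes or 6 Neurog targets was past 1.5-fold, with median log2 ratios of -0.03, -0.02 and 0.00. Of 19 BMP signalling genes, Gdf7 and Bmp4, ligand genes of the dorsal midline, were past it and higher in replicate 2. Gdf7 had 21 counts in replicate 1 and 126 in replicate 2, and Bmp4 had 157 and 477. The other neural bHLH genes had 2 past 1.5-fold in replicate 1 (Atoh7, Olig3) and 4 in replicate 2 (Atoh1, Ptf1a, Ferd3l, Tal2) of 15 with enough counts. Olig3 had 54 and 0 counts and Atoh7 46 and 0, whereas Ferd3l had 0 and 25 and Tal2 0 and 37. Atoh1 had 465 and 1353 counts and Ptf1a, a factor of inhibitory neuron progenitors, 140 and 326.

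Marker genes of the cells in which Id genes are known to be active gave values for comparison. Their sums are in TPM, which makes a typical gene 1.40-fold higher in replicate 1. Of 5 endothelial markers none was past 1.5-fold, with a median log2 ratio of 0.13 and summed levels of 74.8 TPM in replicate 1 and 47.3 TPM in replicate 2. Of 5 markers of radial glia and astrocytes none was past it, with a median of -0.003 and sums of 574 and 398 TPM. The 4 markers of dividing cells gave a median of -0.02 and sums of 34.2 and 25.7 TPM. Of 4 choroid plexus markers Ttr and Otx2 were past 1.5-fold and higher in replicate 2, with a median of -0.44 and sums of 329 and 351 TPM. Folr1 (log2 ratio -0.26) was within 1.5-fold, and Kl (0.34) leaned towards replicate 1. Most of each sum was Ttr alone, with 315 and 336 TPM. None of these markers was at 0, and their part in the Id ratios was not tested. All 7 hindbrain markers were detected, from Hoxa3 (2.15 ± 0.382 TPM) to Zic1 (71.9 ± 9.31 TPM) (SD, n = 2).

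**Figure D3:**
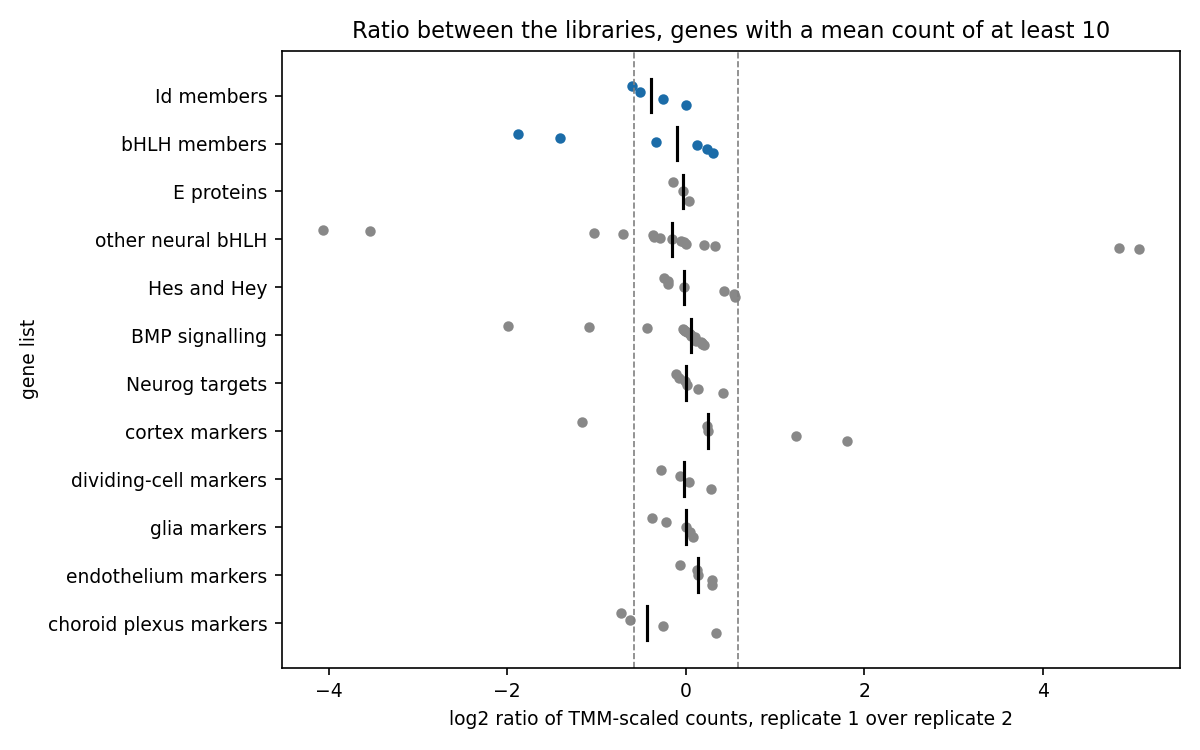
Log2 ratio of replicate 1 over replicate 2 from TMM-scaled counts for genes of each list averaging at least 10 counts (1 dot a gene, black bar at the list's median, dashed lines at 1.5-fold). The Id members have a median of -0.39 and the cortex markers 0.25, while the outermost dots of the other neural bHLH genes are genes with 0 counts in 1 library, whose position depends on the prior count.

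The transcript tables add that the spliced form of Id1 and Id3 held most of each gene and that the intron-keeping form was higher in replicate 2. The other 8 members had a single transcript in the tables. Id1-201 had 37.9 TPM in replicate 1 and 33.3 TPM in replicate 2, and Id1-202 had 1.68 and 4.54 TPM. Id1-202 thus held 4.24% and 11.99% of the gene's TPM, from 116 and 649 expected counts. The deposited intervals of Id1-202, 1.26 to 2.15 and 4.003 to 5.17 TPM, did not overlap. The protein of Id1-202 ends in residues read from the intron printed above.

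Id3 showed the wider gap. Id3-201 had 54.9 and 52.3 TPM, close in both libraries, whereas Id3-203 had 2.06 TPM in replicate 1 and 13.7 TPM in replicate 2, with deposited intervals of 0.773 to 3.74 and 12.3 to 15.0 TPM. Id3-203 held 3.62% and 20.8% of the gene's TPM, from 71.7 and 1004 expected counts. After TMM scaling the counts of Id3-201 were 1.38-fold and those of Id3-203 were 9.77-fold higher in replicate 2. The third transcript, Id3-202, had 0 counts in both, although its deposited interval reached 9.60 TPM in replicate 1 because its effective length was 3.79 bases.

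Main transcript shares also differed between the libraries in other genes. The main transcript's share was lower in replicate 2 by at least 5 percentage points in both Id1 and Id3, and in 34.8% of 9289 genes with more than 1 transcript and at least 200 counts on average. It was lower in replicate 1 by that much in 26.7%. A further comparison took 5049 protein-coding genes with an annotated retained-intron transcript and at least 200 counts on average. The median share of such transcripts was 5.75% in replicate 1 and 7.89% in replicate 2. The share was higher in replicate 2 in 57.8% of these genes. A shift at least as large as that of Id3 was found in 377 of them (7.47%). Id1-202 is annotated as protein-coding and not as a retained intron, so this comparison does not cover it. Whether library-wide intron content had a part in the Id1 and Id3 values was not tested.

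**Figure D4:**
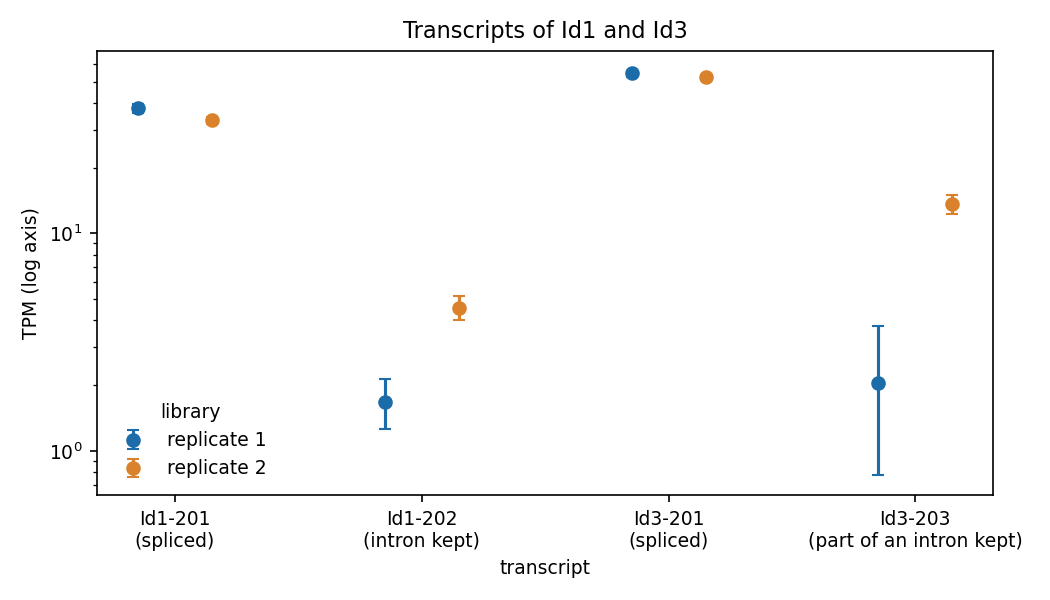
TPM on a log axis of the spliced and intron-keeping transcripts of Id1 and Id3 in replicate 1 and replicate 2, with deposited intervals as bars. The spliced forms lie between 33.3 and 54.9 TPM in both libraries, and the intron-keeping forms are higher in replicate 2, with intervals that do not overlap.

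Promoters are shown for Neurod2 and Neurod6, the detected Neurod members, since the proteins of this family bind the E-box. RefSeq windows of 300 bases (GRCm38.p6, from 250 bases before to 50 after the start) were matched for 8 of 10 members, with 9 windows in all, and Id1 and Bhlhe22 had none. The E-box CANNTG, which reads the same on both strands, was searched with overlaps allowed. The part upstream of the start is printed with E-boxes in capitals, for Neurod2 at chr11:98329646-98329895 and for Neurod6 at chr6:55681264-55681513, both on the minus strand.
Neurod2 upstream: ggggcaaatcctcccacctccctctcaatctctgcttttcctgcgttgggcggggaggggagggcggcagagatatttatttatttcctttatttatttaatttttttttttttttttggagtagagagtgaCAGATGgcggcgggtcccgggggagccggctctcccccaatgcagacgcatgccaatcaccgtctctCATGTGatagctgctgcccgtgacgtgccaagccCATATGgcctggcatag
Neurod6 upstream: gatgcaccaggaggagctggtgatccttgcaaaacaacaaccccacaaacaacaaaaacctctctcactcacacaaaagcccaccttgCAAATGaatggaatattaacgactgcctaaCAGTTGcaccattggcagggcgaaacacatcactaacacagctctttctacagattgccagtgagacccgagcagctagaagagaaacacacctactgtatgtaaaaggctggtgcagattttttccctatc
Neurod2 held 3 E-boxes, which begin at -118, -51 and -17 from the start, and Neurod6 held 2, at -162 and -132. At least 3 were found in 17.6% and at least 2 in 39.6% of 32851 promoter windows. Id2 and Neurog1 held 1 each, Neurod4 held 0 and 1 in its alternative windows, and Id3, Id4 and Neurog2 held 0, where 72.3% of all windows held at least 1. A match describes the letters only and is no measure of binding.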

How the data were processed

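The series holds 2 libraries of hindbrain at postnatal day 0. The authors deposited a gene and a transcript table for each, made on genome build mm10 with GENCODE M4, per the deposited file notes. Which aligner, quantifier and strand setting were used is not given in the sources used here. The authors' expected counts are, per the file headers, estimates that need not be whole. The deposited TPM values are scaled by effective length, the deposited percent columns split a gene's TPM among its transcripts, and the level of the deposited TPM intervals is not stated. Symbols came from GENCODE M21 (mm10) by Ensembl ID, with 42462 of 43346 genes matched. Rows naming no mouse gene, spike-ins included (1.28% and 1.09% of counts), stayed out of library sizes.

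Expected counts were rounded to whole numbers, scaled with TMM in edgeR 4.0.16 (R 4.3.3) over all mouse genes and compared on the log2 scale (prior count 2). The script was tested on simulated data. DESeq2 1.42.0 size factors, total counts, spike-ins and TPM were alternatives. No test was made: 2 libraries form 1 group. The chi-square between them was 105 per degree of freedom over 17632 genes, more than counting error gives, which does not tell 2 samples from 2 preparations of 1 RNA pool. The labels number them as biological replicates, and n = 2 follows the labels.

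The members and gene lists were chosen with earlier results of these data known. All 10 members are named, with up to the 3 highest and the 1 lowest of each pathway list. Other list genes, the count ranges from 10 to under 20 and from 100 to under 200, and the sequences shown were chosen after values were seen. Some genes of the marker lists are withheld and are not reported here.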

Additional observations from a re-analysis of the deposited data

How the results depend on the processing

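The number of detected members was 7 and lay between 7 and 8 under the 4 other settings of unit or threshold, and from 7 to 7 with either library left out. The 8 neighbouring pairs beyond the spread became 2 with 3 SD required, where the rule itself is stricter, and 9 with the deposited posterior mean TPM, where Id3 over Id2 also passed. The Id over bHLH log2 ratio of 2.01 lay between 1.74 and 2.04 with other length scalings or a filter on low levels and from 1.70 to 2.31 with 1 library left out. As a difference of medians it was 4.44 (TPM + 0.1), 3.80 (TPM + 1) and 4.54 (TPM + 0.01). The 3 members past 1.5-fold became 5 with unscaled TPM (Neurod2, Bhlhe22 and Neurod6 higher in replicate 1, Neurod4 and Neurog1 in replicate 2), 4 with spike-in totals (Id1 added) and 2 past 2-fold. Spike-in totals moved the median of all genes to -0.11. The main transcript's share lay from 88.0% to 95.8% for Id1 and from 79.2% to 96.4% for Id3 with 1 library left out. No paired analysis was possible because the series has 1 group. Depth limits Neurog1, Neurod4 and Neurog2 most. None of these values has a check beyond 2 libraries.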
